A study of Drosophila melanogaster with 3 samples.

Results

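The genes described here encode the factors that carry the ribosome along a message and release the finished protein. They are the 9 cytosolic elongation and release factor genes eEF1alpha1, eEF1alpha2, eEF1beta, eEF1delta, eEF1gamma, eEF2, eEF5, eRF1 and eRF3, chosen by name from the 13945 protein-coding genes of the annotation. The study mapped where Myc, the product of the Drosophila gene dm, sits on the genome. There was 1 group of 3 biological replicates of whole embryos of mixed sex, aged 0 to 16 h. The flies carried a stable transgene for Myc with eGFP at its C terminus, and the tagged protein was pulled down with an antibody against GFP from chromatin sonicated to 200 to 800 bp. All 3 replicates came from the same transgenic line, no genotype or treatment was compared, and a peak sums over every cell type of the embryo, so fewer bound cells and weaker binding per cell cannot be told apart.

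Myc is a basic helix-loop-helix factor that pairs with Max and binds E-box DNA words such as CACGTG at promoters of growth genes. Elongation begins when eEF1A, made here from eEF1alpha1 or eEF1alpha2, delivers an aminoacyl-tRNA to the ribosome at the cost of a GTP. The eEF1B complex of eEF1beta, eEF1delta and eEF1gamma recharges eEF1A with GTP, eEF2 moves the ribosome on by 1 codon, and eEF5 helps peptide bonds form between poorly reactive residues. At a stop codon eRF1 enters the ribosome and, with the GTPase eRF3, frees the protein.

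The authors deposited a list of 4371 peaks that passed the irreproducible discovery rate (IDR) procedure, which keeps peaks ranked alike in replicates, and relaxed lists of 25842 to 29853 peaks for the single replicates. Each peak has a signal value from the authors' peak caller and a summit, and a promoter is called bound here when an IDR summit lies within 500 bp of any annotated start. To compare replicates, a peak's signal was divided by the median of the IDR peaks found in the same replicate (66.3, 53.2 and 64.5 in replicates 1, 2 and 3), which gives a relative signal of 1 to a typical IDR peak. The strongest 4371 peaks of each replicate formed its top list. The lists hold no read counts, so depth is unknown and no counting interval can be given.

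Myc peaks stood at 8 of the 9 promoters, and eEF1alpha2 was the exception. The share of bound promoters over all protein-coding genes was 26.0%. The strongest promoter peak of the 8 bound members, called the lead peak below, had a median signal of 559.4 (range 166.2 to 1139). The median over the lead peaks of all 3619 bound genes was 197.1, with quartiles of 145.4 and 312.2, and 6 members lay above the upper quartile. The lowest of the 6, eRF3 at 314.2, was only just above it, with a peak also in reach of another gene's start. Among the strongest 2185 IDR peaks, 7 members and 15.2% of all genes were bound, eEF1delta being lost. A promoter summit in the top list of every replicate was present for 7 members and for 18.2% of genes. The relaxed pooled list, which is labelled as peaks and background, reached all 9 members, and also 54.0% of all genes.

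**Figure D1:**
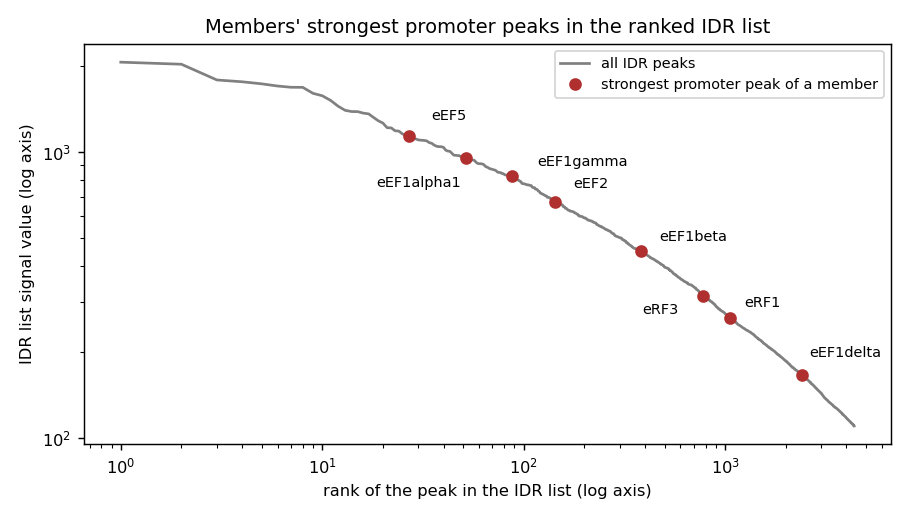
Signal value (log axis) of the 4371 IDR peaks against their rank (log axis; grey line), with the lead peak of each bound member as a red point. The members run from rank 27 (eEF5) to rank 2403 (eEF1delta), and eEF1alpha2 has no IDR peak to plot.

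The DNA at the starts of 4 members is shown because 3 of these starts carry the word TATCGATA, the element bound by the factor DREF at many housekeeping promoters, while the start of eEF1alpha2 is the unbound one. The word does not separate bound from unbound members. It was absent from the promoter peaks of eEF1alpha1, eEF1beta, eEF2, eEF5 and eRF3, which were bound. Windows run from 80 bases before to 30 bases from the start, in gene orientation on the plus strand of dm6 (NCBI reference sequence), with TATCGATA in capitals. They are chr3R:29220092-29220201 for eEF1gamma, chr2L:10232427-10232536 for eEF1delta, chr3L:20348275-20348384 for eRF1 and chr3R:31738388-31738497 for eEF1alpha2. The last 2 sequences hold the E-box CACGTG, in capitals, within the peak of eEF1delta (chr2L:10232684-10232744, plus strand) and the peak of eEF2 (chr2L:21682168-21682228, minus strand). Both are shown because they lie far from the summit called in the IDR list.
eEF1gamma start: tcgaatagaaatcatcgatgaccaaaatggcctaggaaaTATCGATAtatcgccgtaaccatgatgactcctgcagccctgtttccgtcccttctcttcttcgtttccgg
eEF1delta start: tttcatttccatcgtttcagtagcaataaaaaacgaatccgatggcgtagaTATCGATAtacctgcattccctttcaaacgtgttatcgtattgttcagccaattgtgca
eRF1 start: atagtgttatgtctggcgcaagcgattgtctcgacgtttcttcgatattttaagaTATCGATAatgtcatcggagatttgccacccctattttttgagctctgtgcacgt
eEF1alpha2 start: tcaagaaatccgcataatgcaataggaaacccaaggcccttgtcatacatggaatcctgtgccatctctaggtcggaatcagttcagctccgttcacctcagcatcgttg
eEF1delta E-box: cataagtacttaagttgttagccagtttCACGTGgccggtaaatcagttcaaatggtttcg
eEF2 E-box: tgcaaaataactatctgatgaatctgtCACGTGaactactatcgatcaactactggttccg

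The words were counted over all promoter IDR peaks of a gene, for the members as for every other bound gene. Within 50 bp of a summit, CACGTG was found in 0 of 8 members, beside 7.93% of all bound genes. Within 100 bp it was found in 1 member (eEF1alpha1, at its weaker peak), beside 11.0% of bound genes. Over the whole peak it was found in 3 members (eEF1alpha1, eEF1delta and eEF2), beside 14.8% of bound genes. TATCGATA lay within 100 bp of a summit in 3 members (eEF1delta, eEF1gamma and eRF1) and in 14.7% of bound genes. Within 50 bp only eEF1gamma had it, beside 9.09% of bound genes. CACGCG, a variant E-box, lay within 100 bp of a summit of eEF1beta and eRF3 and in 10.5% of bound genes, and CAGCTG lay within 100 bp of a summit of eEF1alpha1 and eRF3 and in 20.4%. CATGTG and the promoter word GGTCACAC (Motif 1) were found in no member's peak at any width, and in 18.9% and 15.3% of bound genes over whole peaks. Both strands were searched, the words do not overlap one another in these peaks, and a match describes letters and not an occupied site.

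The 2 genes for eEF1A lay at opposite ends of the range, eEF1alpha1 among the strongest and eEF1alpha2 unbound. The lead peak of eEF1alpha1 (FBgn0284245, 2R, plus strand, peak 11893141 to 11893493 in dm6) had an IDR signal of 953.4, rank 52, and replicate signals of 389.7, 287.9 and 285.3. Its relative signal was 5.24 ± 0.742 (SD, n = 3). At eEF1alpha2 (FBgn0000557, 3R, 31738468 to 31743306) the IDR list had no summit in the promoter or in the gene, and its strongest promoter summits in the relaxed lists had signals of 15.6, 16.0 and 17.3. These summits held ranks 22538, 14898 and 14159, far outside the top lists, and lay at −93, −17 and +366 bp of the start. Their relative signal was 0.268 ± 0.0325 (SD, n = 3). The ratio of eEF1alpha1 to eEF1alpha2 was 25, 18.0 and 16.5 in replicates 1, 2 and 3, a mean log2 ratio of 4.29 ± 0.315 (SD, n = 3). In each replicate the eEF1alpha2 signal lay below the median of the whole relaxed list (19.8, 17.4 and 18.2). The ratio thus divides by summits weaker than a typical relaxed one, and its size is rough. An exact two-sided sign-flip test over the 3 replicates gave p = 0.25, the smallest p this design allows, so the difference is given as a size that held in 3 of 3 replicates. Inside eEF1alpha2 the pooled relaxed list had a second summit 2460 bp past the outermost start, in a coding exon, with a signal of 59.6 and rank 9983. The coding sequences of the 2 genes are much alike, and no source used here says how reads matching both were treated; the lead summit of eEF1alpha1 lies in an intron.

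The peaks of eEF1alpha1 were not at its outermost start. The gene has 4 annotated starts, with 1 transcript each, at 11891135, 11891396, 11892122 and 11893542. The lead summit lay at −244 bp of the innermost of these, inside an intron of the other 3 transcripts. Its position was sharp: the replicate summits stood at −242, −240 and −245 bp, a range of 5 bp. The small nucleolar RNA gene snoRNA:Me28S-A1322 (11893123 to 11893195) lies beside it, and the summit was 103 bp beyond its end. A second IDR peak (11892242 to 11892415, signal 301.2, rank 846) had its summit 178 bp past the start at 11892122, again in an intron. Replicates 1 and 2 had it with signals of 147.5 and 140.7, whereas replicate 3 had its only summit at −65 bp of that start, with a signal of 90.2. At the outermost start the relaxed lists gave weaker summits, with signals of 48.4, 13.7 and 17.8 at −354, −420 and −363 bp. No list had a summit within 500 bp of the start at 11891396. The E-box of eEF1alpha1 (11892381 to 11892386) belongs to the second peak, with its centre 83 bp from that summit.

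**Figure D2:**
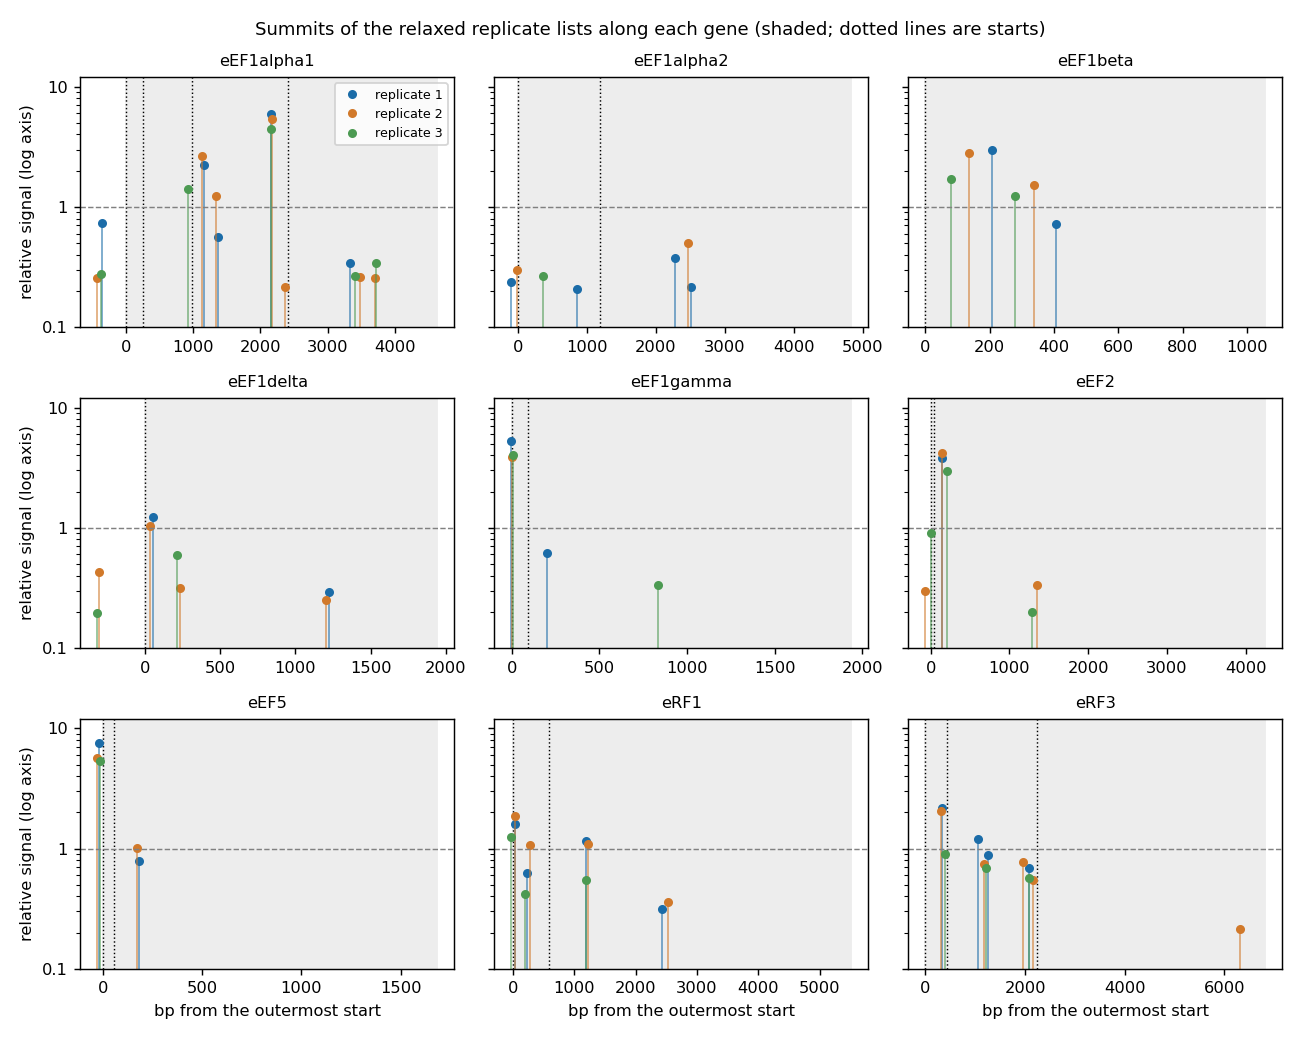
Relaxed-list summits of each replicate along the 9 genes, with the distance from the outermost start in bp on the x axis and relative signal (log axis) on the y axis. The shaded span is the gene, dotted lines are its starts and the dashed line marks a relative signal of 1; eEF1alpha1 peaks far inside the gene and eEF1alpha2 stays below 1 throughout.

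The 3 subunits of eEF1B spanned most of the range. eEF1gamma (FBgn0029176, 3R, plus strand), the subunit that holds the complex together, had a lead peak at 29219983 to 29220355 with an IDR signal of 823.8, rank 87. Its replicate signals were 351.8, 204.8 and 257.6, with a mean relative signal of 4.38 ± 0.801 (SD, n = 3). The summit lay 3 bp past the start in the IDR list and at −2, −1 and +7 bp in the replicates, and the centre of the TATCGATA shown above was at −40 bp of the summit. eEF1beta (FBgn0028737, 2R, plus strand), a nucleotide exchange subunit, had a lead peak at 16868180 to 16868407 with an IDR signal of 449.8, rank 384. Its replicate signals were 199.0, 148.9 and 110.5, with a mean relative signal of 2.50 ± 0.693 (SD, n = 3), and every replicate had it in the top list. eEF1delta (FBgn0032198, 2L, plus strand), the other exchange subunit, had the weakest lead peak of the bound members, at 10232334 to 10232783, with an IDR signal of 166.2, rank 2403. Replicates 1 and 2 had it with signals of 81.6 and 54.8, with a mean relative signal of 1.13 ± 0.142 (SD, n = 2).

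Both exchange subunits were less regular in position than eEF1gamma. In eEF1beta the lead summit stood at +206, +137 and +78 bp of the start in replicates 1, 2 and 3, a range of 128 bp, in a gene of 1059 bp. A second IDR summit followed at +329 bp (peak 16868326 to 16868775, signal 246.7, rank 1191). Its replicate signals were 48.2, 80.3 and 79.0, or 1.15 ± 0.396 (SD, n = 3) as relative signal. The smallest distance between neighbouring summits in each deposited list was 199 bp, and 344 of 4365 neighbouring pairs in the IDR list were under 250 bp apart. The eEF1beta pair is among them, and whether its 2 summits are separate was not tested. In eEF1delta replicate 3 had no summit within 100 bp of the IDR summit. Its strongest promoter summit was at +211 bp with a signal of 38.5, rank 4459, just outside the top list. This summit (10232718) was the base next to the end of the CACGTG at 10232712 to 10232717. The IDR summit was at +52 bp, and replicates 1 and 2 had theirs at +54 and +37 bp.

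eEF2 (FBgn0000559, 2L, minus strand), the translocase, had a lead peak at 21681863 to 21682290 with an IDR signal of 669.0, rank 143. Its replicate signals were 250.1, 221.2 and 192.7, with a mean relative signal of 3.64 ± 0.596 (SD, n = 3). The summit lay in an intron, 120 bp past the start with most transcripts (21682116), and at +91, +91 and +160 bp in the replicates. The CACGTG of this peak begins at −37 bp of the outer start (21682164), on the other side of the start from the summit. A relaxed pooled summit stood beside it, at −46 bp, with a signal of 75.6 and rank 7340. In the replicates a summit near this place was listed in replicate 2 at −67 bp (signal 15.7) and in replicate 3 at +7 bp (signal 58.7), and replicate 1 listed none. A further IDR peak (21677563 to 21678012, signal 120.8, rank 3844) had its summit 125 bp beyond the 3′ end of eEF2. It lay at −258 bp of the start of CG2225, so it was counted there and not for eEF2.

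eEF5 (FBgn0285952, 2R, plus strand), the only hypusine-bearing protein known, had the strongest peak of the 9 genes. Its lead peak at 24057587 to 24057969 had an IDR signal of 1139, rank 27. The replicate signals were 504.3, 299.1 and 345.8, with ranks 16, 34 and 57, and the relative signal was 6.20 ± 1.22 (SD, n = 3). The summit lay at −12 bp of the start, and at −22, −28 and −16 bp in the replicates, a range of 12 bp. By relative signal in the 3 replicates, the closest of 3146 other bound genes with a value in every replicate were Nopp140 (IDR signal 1189) and the pair Bdp1 and CG6565, which share 1 peak (IDR signal 1102). Their Euclidean distances on the log2 scale were 0.269 and 0.260.

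The release factor peaks ranked below those of every bound elongation factor but eEF1delta. eRF3 (FBgn0020443, 2L, plus strand) had its lead peak at 12434720 to 12434930 with an IDR signal of 314.2, rank 778. Its replicate signals were 143.4, 108.5 and 58.0, and replicate 3 was low, with a relative signal of 0.900 beside 2.16 and 2.04. The mean relative signal was 1.70 ± 0.696 (SD, n = 3). The summit was 345 bp past the outermost start and at −95 bp of the next one. It was also at −132 bp of an annotated start of SC35, a splicing factor gene that runs the other way. The peak is therefore within reach of both promoters and cannot be given to either. A further IDR peak lay at 12433553 to 12434002 (signal 300.4, rank 853, relative signal 1.61 ± 0.590, SD, n = 3). Its summit was 260 bp past a different annotated start of SC35. That summit was 674 bp outside eRF3, so it was not counted for it. eRF3 also had an IDR peak in its body (12435446 to 12435895, signal 158.0) and one at its innermost start (12436295 to 12436744, signal 120.3, rank 3877). Their relative signals were 0.775 ± 0.106 and 0.604 ± 0.0776 (SD, n = 3). eRF1 (FBgn0036974, 3L, plus strand) had its lead peak at 20348167 to 20348616 with an IDR signal of 263.8, rank 1055. The replicate signals were 105.9, 98.8 and 81.2, with a mean relative signal of 1.57 ± 0.300 (SD, n = 3), and the summit lay 37 bp past the start of 7 of its 8 transcripts. The same summit stood at −450 bp of the start of Rbbp5. An intronic IDR peak of eRF1 (20349330 to 20349779, signal 165.9, rank 2414) had replicate signals of 76.4, 58.3 and 35.

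The order of the lead peaks by mean relative signal was eEF5, eEF1alpha1, eEF1gamma, eEF2, eEF1beta, eRF3, eRF1 and eEF1delta. Neighbours were compared by their difference within each replicate. eEF5 exceeded eEF1alpha1 by 0.959 ± 0.758 (SD, n = 3) and eEF1alpha1 exceeded eEF1gamma by 0.854 ± 0.617, both in 3 of 3 replicates. eEF1gamma and eEF2 did not differ beyond their spread (0.744 ± 0.948, higher in 2 of 3 replicates), nor did eRF3 and eRF1 (0.130 ± 0.465, higher in 2 of 3). The step from eEF2 to eEF1beta was 1.14 ± 0.319 and that from eEF1beta to eRF3 was 0.804 ± 0.0413, each in 3 of 3 replicates. Between eRF1 and eEF1delta the difference was 0.597 ± 0.327 over the 2 replicates that had both. With 3 replicates no exact test of these steps could fall below 0.25, and they are given as descriptions.

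**Figure D3:**
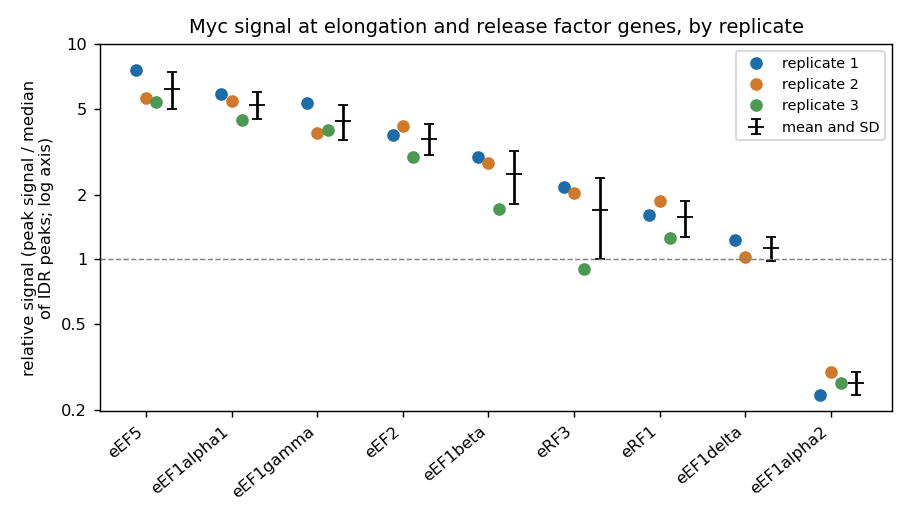
Relative signal (log axis; 1 is the median IDR peak of the replicate, dashed) of the lead peak of each bound member and of the strongest relaxed promoter summit of eEF1alpha2, with 1 point per replicate and the mean with SD in black. The 4 leading genes stand at 2.99 or above in every replicate, eEF1delta has 2 points, and eEF1alpha2 lies between 0.235 and 0.300.

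In all, the members had 13 IDR summits in promoters and gene bodies, 11 of them within 500 bp of a start. The farthest summit inside that distance was the second of eEF1beta at 329 bp. The nearest outside it were the intronic ones of eRF1 at 618 bp and eRF3 at 779 bp. Of the 8 bound members, 4 (eEF1alpha1, eEF1beta, eRF1 and eRF3) had 2 or more IDR summits, beside 24.1% of bound genes. In the IDR list the lead summit was at or past the nearest start in 5 of 8 members (eEF1beta, eEF1delta, eEF1gamma, eEF2 and eRF1), beside 26.6% of bound genes, whose median position was −61 bp with quartiles of −167 and +3 bp. The side of the start did not hold in every replicate. The summit of eEF1gamma stood at −2, −1 and +7 bp, and that of eRF1 at −24 bp in replicate 3. Of the 13 summits, 9 were found within 100 bp in all 3 top lists. The share over all IDR peaks was not taken, so this count does not set the members apart from other IDR peaks.

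The starts of these genes also shared letters that the choice of members did not use. TCTTTC on the sense strand within 20 bp of an annotated start was present in 4 of 9 members (eEF1alpha1, eEF1beta, eEF2 and eEF5; 44.4%), beside 1.84% of all protein-coding genes and 2.87% of bound genes. It was present in 32 of 93 cytosolic ribosomal protein genes (34.4%) and in 2 of 44 initiation factor genes (4.55%). A pyrimidine-rich initiator of this kind is known from ribosomal protein and elongation factor genes. The word was picked after the letters at the members' starts had been seen, so the count is a description. Of the carriers, eEF5, eEF1alpha1 and eEF2 had relative signals of 6.20, 5.24 and 3.64 and eEF1beta one of 2.50, and eEF1gamma, at 4.38, has no TCTTTC.

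Genes that act on these factors were bound as well. The genes of the pathways that modify them had IDR promoter peaks in 9 of 9 matched cases, beside 26.0% of all protein-coding genes. Their median lead signal was 350.7. Among the makers of diphthamide, the modified histidine of eEF2, the signals were 381.6 for Dph1, 121.4 for Dph2, 248.0 for Dph3, 703.5 for Dph4 and 350.7 for Dph5. The Dph4 peak was shared with the promoters of RpL13A and Spec2. The hypusine enzymes that act on eEF5 had signals of 179.0 (Dhps) and 501.7 (nero). HemK2 and Trmt112, which in yeast and human act together to methylate eRF1, had 242.6 (shared with Tnpo-SR and Snapin) and 556.2. Of ribosome rescue and recycling genes, 5 of 5 matched ones were bound, namely pelo (186.0), HBS1 (201.4), pix (301.7), Clbn (207.6) and Ltn1 (1046, shared with CG9300). The mitochondrial counterparts were bound in 5 of 8 cases by the IDR list. With replicate 1 or replicate 3 left out, 3 of 8 had a promoter summit in the top lists of both other replicates. That is a different call from the IDR one, so the lower count cannot be laid to the replicate left out. The share of all genes was 26.0% for the first count, 19.6% without replicate 1 and 21.0% without replicate 3. The 5 were mEFTs (235.1), mEFG1 (276.1), waw (329.9), mEFTu2 (122.5) and mRF1 (132.4, shared with CG9426). For mEFTu1 there was no IDR summit, but a relaxed pooled one (75.8) and a promoter summit in the top lists of 2 replicates. For mRRF1 and mRRF2 the pooled list had none.

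Beside the 26.0% of all genes, translation initiation factors were bound in 29 of 44 cases (65.9%), cytosolic ribosomal proteins in 85 of 93 (91.4%) and aminoacyl-tRNA synthetases in 21 of 35 (60.0%). The median lead signals of these lists were 279.9, 498.9 and 204.3, and that of the members was 559.4. CACGTG within 50 bp of a promoter summit was present in 7.93% of all bound genes. Beside that share, 20 of the 85 bound ribosomal protein genes, 0 of 29 initiation factors and 0 of the 8 members had it. So did 1 of 21 synthetases, 1 of 9 modification genes, 1 of 5 rescue genes and 0 of 5 mitochondrial ones. No test was made between these lists.

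**Figure D4:**
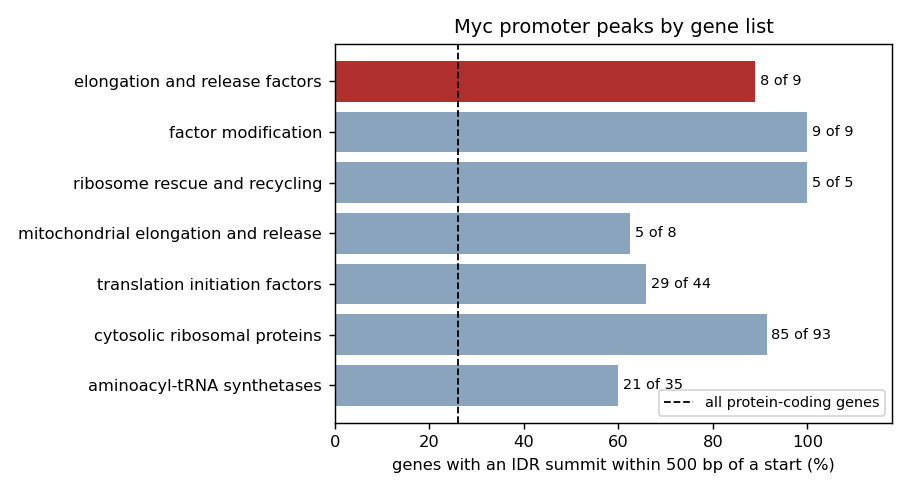
Percentage of genes with an IDR summit within 500 bp of a start in each gene list (bars, with counts), beside all protein-coding genes (dashed line, 26.0%). The members stand at 88.9%, and the lists range from 60.0% to 100%.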

How the data were processed

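Chromatin immunoprecipitation of Myc-GFP was sequenced in 3 embryo replicates. Peaks were deposited by the authors with a signal value per peak, per the deposited file listing on dm6 and dm3. The signal was used as deposited and was taken not to be on a log scale. The dm3 lists, signal tracks and control samples were not analysed here. For the aligner, peak caller, scaling of the signal and IDR threshold, nothing is given in the sources used here. The IDR list is built from the same replicates, so replicate support of its peaks is partly built in.

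Starts, exons and names came from Ensembl release 115 and sequence from the NCBI assembly of the same build, whose arm lengths hold all dm6 peaks. Summits were matched between lists within 100 bp. Python 3.11.15, numpy 2.4.6, pandas 2.3.3 and scipy 1.17.1 were used, and the summit search was tested on simulated data (200 of 200 planted promoter summits recovered among 13945 genes). The members and the gene lists were chosen with earlier results of these data known, so lists are described by counts without a set test. All 9 members are named, as are genes sharing their summits, the modification, rescue and mitochondrial lists (Dph6, Dph7 and Znf598 matched no gene) and the 3 genes nearest to eEF5. Not every gene that shares a peak with a gene of these lists is reported here. Alternatives changed the promoter width, the overlap rule, the list, the match distance and the replicates used. Replicate spread includes technical spread.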

Additional observations from a re-analysis of the deposited data

How the results depend on the processing

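The count of 8 bound members of 9 held with promoters of 250 or 1000 bp each side, with any overlap of peak and promoter, and with each summit given to its nearest start. In this order the share of all genes was 22.3%, 28.9%, 27.4% and 19.1%. The count of members was 7 among the strongest 2185 IDR peaks (15.2% of all genes) and in the top list of replicate 3 (24.5%). For counts of bound genes, leaving out 1 replicate replaced the IDR list by promoter summits in the top lists of both other replicates. By this call 7 to 8 members were bound (19.6% to 21.0% of all genes). The relaxed pooled list held 9 (54.0%). eEF1delta was the gene lost each time, also without replicate 1 or 2. Members whose lead summit was in all top lists fell from 7 to 4 with a match within 50 bp (eEF1alpha1, eEF1gamma, eEF2 and eEF5 remained). The share of all bound genes at these match distances was not taken. CACGTG was in 0 members within 50 bp of the summit, 1 within 100 bp and 3 over whole peaks. Ribosome rescue genes were bound in 3 of 5 cases by nearest start, beside 19.1% of all genes. Mitochondrial factors were bound in 3 of 8 by nearest start (19.1% of all genes) and among those 2185 peaks (15.2%). By the top lists of both other replicates, 3 to 4 of them were bound, beside 19.6% to 21.0% of all genes. The count was 3 without replicate 1 and without replicate 3. Aminoacyl-tRNA synthetases were bound in 13 of 35 cases among those 2185 peaks, beside 15.2% of all genes. For the single members' relative signals, 46 of 47 alternatives stayed within 1 SD. The exception was eEF1delta, which moved from 1.13 to 0.935 ± 0.317 (SD, n = 3) with a match within 200 bp. Of the 47, 23 left out 1 replicate. Dropping 1 of 2 or 3 values cannot move their mean by 1 SD, so these 23 could not have failed. The 8 with a match within 50 bp kept or dropped the same replicate summits and otherwise changed only the dividing median. That 8 of 8 stayed within 1 SD is therefore a weak check. The log2 ratio of eEF1alpha1 to eEF1alpha2 was 4.11 to 4.41 when 1 replicate was left out. The causes were not tested. With 1 group, no replicate block between groups applies.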
